A study of Mus musculus with 8 samples.

Results

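The genes described here are 10 regulators of the G1 phase of the cell cycle, taken by symbol from the authors' deposited table of 17631 genes, and all 10 were found. They are the D-type cyclins Ccnd1, Ccnd2 and Ccnd3, the E-type cyclins Ccne1 and Ccne2, the kinases Cdk4 and Cdk6, and the CIP/KIP inhibitors Cdkn1a (p21), Cdkn1b (p27) and Cdkn1c (p57). Their levels were compared between 2 groups of C57BL/6 mice at postnatal day 7.5, each with 4 libraries of RNA from the apical portion of lower first molars, where the root grows. All animals carried both floxed Runx2 alleles. The mutant group (Gli1-CreERT2;Runx2fl/fl) also carried a recombinase driven from the Gli1 locus, and the control group (Runx2fl/fl) did not. Tamoxifen, which activates that recombinase, was injected into the peritoneum on postnatal day 3.5 (1.5 mg for every 10 g the animal weighed), and the labels give 1 treatment text for both groups. The comparison asks how the root's transcripts differ once Runx2, a transcription factor of bone and tooth formation, is deleted from Gli1-expressing progenitors. The driver is present in the mutant group alone, so its effects and those of Runx2 loss cannot be told apart.

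A cell passes from G1 into DNA synthesis when D-type cyclins activate CDK4 and CDK6 and E-type cyclins activate CDK2. These kinases phosphorylate the retinoblastoma protein, which releases E2F factors to switch on replication genes. CIP/KIP proteins bind cyclin-kinase complexes and hold CDK2 in check, and INK4 proteins bind CDK4 and CDK6 alone. In the growing root, dividing epithelial and mesenchymal progenitors lie next to odontoblasts that have left the cycle, so bulk tissue mixes cells with opposite needs for these genes.

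Group means below are normalised signals on a linear scale from the authors' deposited table, and fold sizes and p-values are the authors' too. Where a pair of means is given, the mutant comes first, and log2 ratios are of the mutant over the control mean. Adjusted p-values are Benjamini-Hochberg values over all 17631 genes, and a gene was called at an adjusted p under 0.05. The table holds 1 mean per group, so no value per library, spread or overlap of the groups can be given, and the depth of the libraries is unknown. The labels do not say whether each library is 1 animal, so the p-values reflect variation among libraries that may be partly technical. Whether the means are scaled to gene length is not stated in the sources used here, so levels are compared between groups and not between genes. Log2 ratios varied with the GC content of the transcripts, so values are also given with a smooth trend on GC content and exonic length subtracted, called trend-subtracted values from here on. The targeted gene, Runx2, stood in the authors' deposited table at 65.1 against 105.5 (adjusted p = 0.0646), a mean over the whole gene that includes reads outside the floxed part, and Gli1, the driver's locus, fell 1.95-fold to 19.9 (adjusted p = 0.0228), a call that ended on trend-subtracted values (log2 ratio -0.86, adjusted p = 0.0636).

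None of the 10 genes was called in either direction, where 0.788% of all genes were (139 genes, 83 higher and 56 lower in the mutant). At an unadjusted p under 0.05 there were 2, Ccnd2 and Cdkn1b, both with the higher mean in the mutant, beside 19.3% of all genes in either direction and 9.89% higher in the mutant. With the threshold at an adjusted p of 0.10 none of the 10 was called (3.64% of all genes), nor was any when genes with both means under 1 were left out (1.19%). By direction alone, 8 of the 10 had a higher mean in the mutant, and Ccnd3 and Cdkn1a had a lower one. The group means sum to 955256 (mutant) and 1050684 (control), and scaling them to equal sums adds 0.14 to every log2 ratio, which makes 9 of the 10 higher and leaves Cdkn1a lower. Much of the gap in sums came from the ameloblast genes Amelx (112174 against 174946) and Ambn (53601 against 72752), neither of them called. The median log2 ratio of the 10 was 0.16, and that of all genes was 0.00, with 50.6% of genes higher in the mutant. All 10 log2 ratios lay between -0.22 and 0.31. No called gene in the table had a log2 difference smaller than 0.31, so differences of the size seen here did not reach a call for any gene in these data. A missed call does not show that a level stayed the same.

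**Figure D1:**
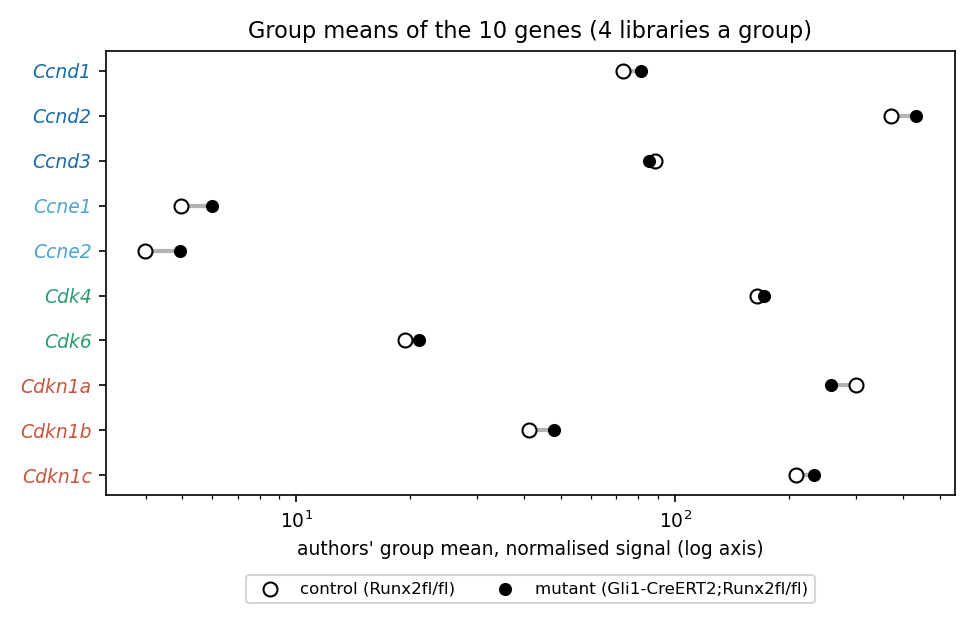
Group means of the 10 genes in control (open circles) and mutant (filled circles) molars, as normalised signal on a log axis. No error bars can be drawn from 1 mean per group, and positions of different genes on the axis are not a comparison of their abundance. The filled circle lies left of the open one for Ccnd3 and Cdkn1a and right of it for the other 8 genes.

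Among the D-type cyclins, which couple growth signals to the cycle, Ccnd2 stood furthest from its control. The authors' deposited table gave it means of 433.2 against 370.7, 1.17-fold higher (log2 ratio 0.22, p = 0.0149, adjusted p = 0.163). Ccnd2 lies on chromosome 6 (127125162 to 127152193, minus strand, GRCm38, protein-coding). By p-value it ranked 1607 of 17631, the lowest of the 10 genes. Ccnd1, the D-type cyclin best known as a target of WNT and growth factor signals, had 81.5 against 72.7 in the authors' deposited table (log2 ratio 0.17, p = 0.106, adjusted p = 0.352). For Ccnd3 the authors' deposited table gave 85.1 against 88.8 (log2 ratio -0.06, adjusted p = 0.726). The D-type cyclins therefore did not share a direction as deposited, though Ccnd3 turned to a log2 ratio of 0.0764 with group means scaled to equal sums, and none passed the threshold. Ccnd1 is on chromosome 7 (144929931 to 144939925, minus strand) and Ccnd3 on chromosome 17 (47505051 to 47599691, plus strand).

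The E-type cyclins, which act late in G1 and are themselves E2F targets, had the highest log2 ratios of the 10 at low group means. Ccne2 (chromosome 4, 11191351 to 11204779, plus strand) had 4.92 against 3.98 in the authors' deposited table, a log2 ratio of 0.31 (p = 0.0864, adjusted p = 0.324). Ccne1 (chromosome 7, 38097984 to 38107534, minus strand) had 5.99 against 4.96 there, a log2 ratio of 0.27 (the authors' p = 0.175, adjusted p = 0.449). Both means were higher in the mutant, and both tests missed the threshold. The direction of Ccne2 depends on the processing, since its trend-subtracted log2 ratio was -0.11 (recomputed from the authors' values, p = 0.914), while that of Ccne1 was 0.32. Of all genes, 73.2% had an absolute log2 ratio no larger than that of Ccne2.

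The kinase partners of the D-type cyclins differed little between the groups. Cdk4 (chromosome 10, 127063534 to 127067920, plus strand) had 172 against 164.7 in the authors' deposited table (log2 ratio 0.06, adjusted p = 0.739). Cdk6 (chromosome 5, 3341485 to 3531008, plus strand) had 21.1 against 19.4 in the authors' deposited table (log2 ratio 0.12, adjusted p = 0.523). With the cyclins, 6 of these 7 genes had the higher mean in the mutant, and their median log2 ratio was 0.17.

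The 3 CIP/KIP inhibitors split by direction. Cdkn1b, which restrains CDK2 in quiescent cells, stood in the authors' deposited table at 48.0 against 41.2, 1.17-fold higher (log2 ratio 0.22, p = 0.0233, adjusted p = 0.192). Cdkn1c, an imprinted gene active in differentiating tissues, had 232.7 against 209 in the authors' deposited table (log2 ratio 0.15, p = 0.216, adjusted p = 0.495). Cdkn1a, a target of p53 and of differentiation signals, had 258 against 301, a 1.17-fold lower mean in the authors' deposited table (log2 ratio -0.22, p = 0.167, adjusted p = 0.441). None was called. Cdkn1a lies on chromosome 17 (29090976 to 29100727, plus strand), Cdkn1b on chromosome 6 (134920401 to 134925513, plus strand) and Cdkn1c on chromosome 7 (143458339 to 143461050, minus strand).

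Set against each other, cyclins and kinases had a median log2 ratio of 0.17 and inhibitors 0.15, so the medians differed by 0.01. By median, the inhibitors did not stand opposite the cyclins and kinases. Summed means went opposite ways, at 803.8 against 725.2 for cyclins and kinases and 538.7 against 551.3 for inhibitors. Within the inhibitors only Cdkn1a had the lower mean (258 against 301), and Cdkn1b and Cdkn1c had higher ones. Ccnd2 (433.2 against 370.7) was the largest part of the cyclin and kinase sum. Sums weight each gene by its level, and none of these genes was called. Cdkn1a had the lowest log2 ratio of the 10, and its mean relative to each of the 7 cyclins and kinases was lower in the mutant, by 0.16 to 0.53 on the log2 scale. Relative to the same 7 genes, Cdkn1b was lower for 3 and Cdkn1c for 4. On trend-subtracted values Cdkn1a was still lower than all 7, by 0.05 to 0.49, but Cdkn1b was lower than 4 and Cdkn1c than 1, and the class medians were 0.13 for cyclins and kinases and 0.10 for inhibitors. These differences between genes could not be tested without values per library, and the 7 comparisons for each inhibitor share that inhibitor's value.

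**Figure D2:**
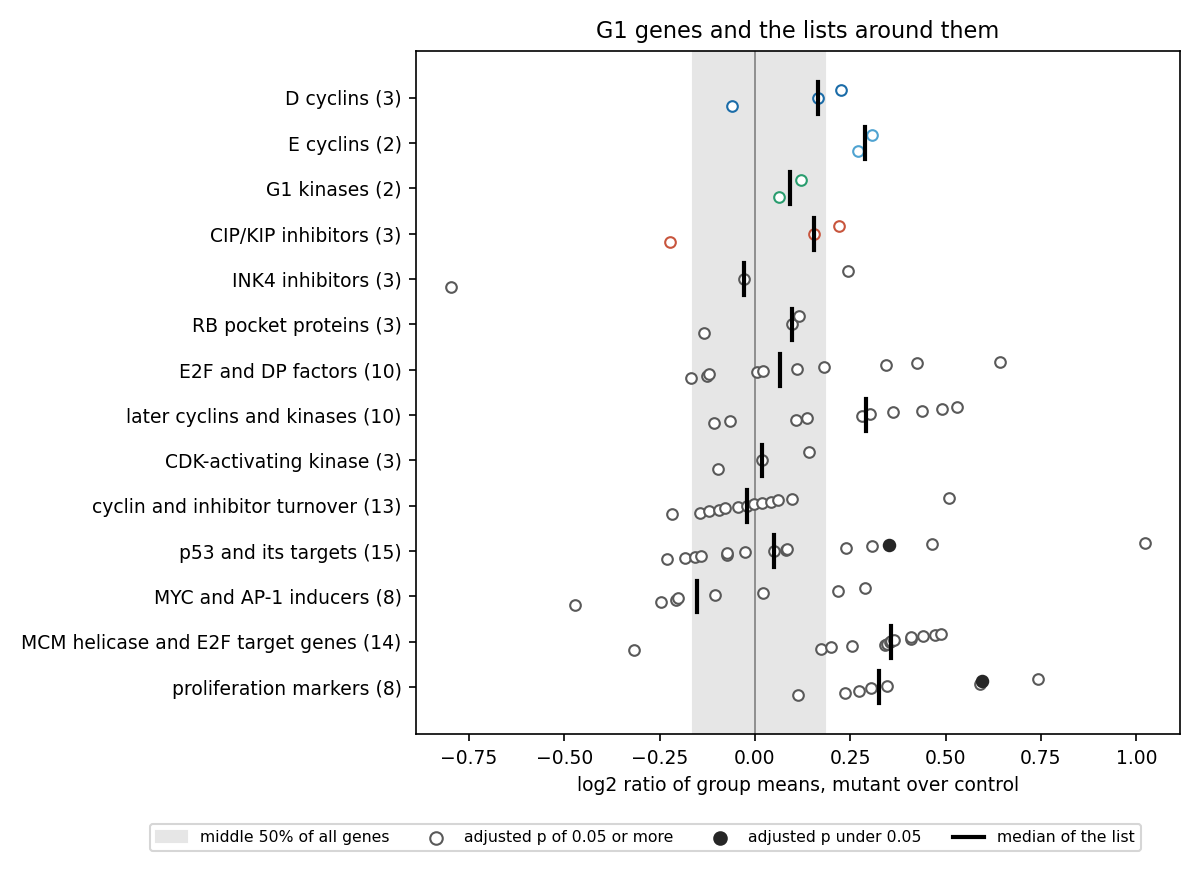
Log2 ratio of the group means, mutant over control, for each gene of the 4 classes described and of 10 lists from the same pathway, with the number of measured genes in brackets. Filled points are genes with an adjusted p under 0.05, bars are list medians and the grey band is the middle 50% of all genes. All points of the 4 upper classes are open, and the medians of the E-type cyclins, later cyclins, E2F targets and proliferation markers lie to the right of the band.

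The second class of G1 inhibitors, the INK4 proteins, held the largest difference among the inhibitors measured. Cdkn2b (p15), an inhibitor of CDK4 and CDK6 known to respond to TGF-beta, stood in the authors' deposited table at 36.1 against 62.8 (log2 ratio -0.80, p = 0.00171, adjusted p = 0.081). It missed the threshold of 0.05, and its trend-subtracted log2 ratio was -0.65 (recomputed from the authors' values, p = 0.0349, adjusted p = 0.344). In the authors' deposited table Cdkn2c (p18) had 17.8 against 15.1 (log2 ratio 0.24, adjusted p = 0.29), and Cdkn2d (p19) had 9.84 against 10.0 (log2 ratio -0.03, adjusted p = 0.906). Over the 6 CIP/KIP and INK4 genes measured, 3 had the higher mean in each group, and the median log2 ratio was 0.06.

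Downstream of the kinases, none of the 3 pocket proteins was called. Rb1, the retinoblastoma gene, had log2 ratio -0.13, Rbl1 (p107) 0.12 and Rbl2 (p130) 0.10, and the authors' adjusted p-values were 0.645, 0.562 and 0.5. Trend-subtracted, these log2 ratios were -0.31 for Rb1 (recomputed from the authors' values, p = 0.0305, adjusted p = 0.326), -0.02 for Rbl1, which changes sign at a recomputed p of 0.921, and 0.01 for Rbl2. None of 10 E2F and DP factors was called, and their median log2 ratio was 0.07, with 7 higher means as deposited and 5 trend-subtracted. E2f1, an activator that drives S phase entry, had 8.28 against 6.16 in the authors' deposited table (log2 ratio 0.43, p = 0.00653, adjusted p = 0.12). E2f7, a repressor expressed during S phase, had 3.77 against 2.42 in the authors' deposited table (log2 ratio 0.64, p = 0.0114, adjusted p = 0.147), and its relative E2f8 had log2 ratio 0.34 (adjusted p = 0.293). Trend-subtracted, E2f1 had 0.55 (recomputed from the authors' values, p = 0.000391, adjusted p = 0.0777) and E2f7 0.61 (p = 0.0236, adjusted p = 0.299). The other activators differed from one another, with E2f2 at -0.13 and E2f3 at 0.18. E2f4 and E2f5, which act with pocket proteins in resting cells, had log2 ratios of -0.17 and -0.12, and E2f6 stood at 0.02. Their dimer partners Tfdp1 and Tfdp2 stood at 0.11 and 0.00.

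None of 10 later cyclins, kinases and their phosphatases was called, but 8 had the higher mean in the mutant and 4 had an unadjusted p under 0.05, all higher (9.89% of all genes), with a list median of 0.29. Ccna2, the cyclin of S and G2 phase, had 21.4 against 15.3 in the authors' deposited table (log2 ratio 0.49, adjusted p = 0.145). By the authors' deposited table Cks2, a kinase subunit, had log2 ratio 0.44 (adjusted p = 0.102), Ccnb2 0.36 (adjusted p = 0.167), Cdk1 0.28 (adjusted p = 0.246), Ccnb1 0.30 (adjusted p = 0.336) and Cks1b 0.14 (adjusted p = 0.516). Cdk2, the partner of the E-type cyclins, stood at -0.07 (15.9 against 16.7 in the authors' deposited table, adjusted p = 0.698). The activating phosphatases Cdc25a, Cdc25b and Cdc25c stood at -0.11, 0.11 and 0.53, the last at means of only 1.43 and 0.988.

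Of 14 MCM helicase and other E2F target genes none was called, 13 had the higher mean in the mutant, and 10 of these had an unadjusted p under 0.05 (9.89% of all genes), with a median log2 ratio of 0.36. Among the helicase subunits, the lowest p-values belonged to Mcm6 (42.2 against 33.2, adjusted p = 0.0715) and Mcm3 (23.2 against 17.1, adjusted p = 0.0802) in the authors' deposited table. Trend-subtracted, the adjusted p-values were 0.178 for Mcm6 and 0.0913 for Mcm3 (recomputed from the authors' values). Cdt1, a licensing factor needed before replication, was the 1 gene of the list with the lower mean in the authors' deposited table (9.23 against 11.5, log2 ratio -0.32, adjusted p = 0.185), and it was named after its value was seen. Of 8 proliferation markers 1 was called, where 0.471% of all genes were called higher: in the authors' deposited table Mki67 rose from 32.2 to 48.6 (log2 ratio 0.59, adjusted p = 0.0486). That call ended on trend-subtracted values (log2 ratio 0.47, adjusted p = 0.213, recomputed from the authors' values). All 8 had higher means in the mutant, with a median of 0.32. Top2a (51.0 against 33.9, adjusted p = 0.0608) and the spindle checkpoint gene Bub1 (4.23 against 2.53, adjusted p = 0.0762) missed the threshold in the authors' deposited table. These medians were about as high as the log2 ratios of Ccne1 and Ccne2 and above those of the D-type cyclins and the kinases. On trend-subtracted values the likeness to Ccne2 did not hold, at -0.11 against list medians of 0.31 for the E2F targets and 0.36 for the proliferation markers. Whether the lists differ from the 10 genes was not tested. Even if these transcripts were higher in the mutant, bulk tissue could not tell more dividing cells from more RNA per dividing cell. The part of a changed mix of cell types in these values was not tested.

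Regulators of these genes gave few calls. Of 15 genes of the p53 group, whose best-known target is Cdkn1a, 1 was called, where 0.471% of all genes were called higher: Zmat3 rose from 23.3 to 29.8 (log2 ratio 0.35, adjusted p = 0.0484 in the authors' deposited table). That call too ended on trend-subtracted values (log2 ratio 0.25, adjusted p = 0.197, recomputed from the authors' values). In the authors' deposited table Trp53inp1 had 52.9 against 38.3 (log2 ratio 0.46, adjusted p = 0.0754) and Phlda3 60.2 against 70.6 (log2 ratio -0.23, adjusted p = 0.156). The list had 8 higher and 7 lower means, a median of 0.05, and Cdkn1a had the lower mean while Zmat3 and Trp53inp1 had the higher. Trend-subtracted, 11 were higher and 4 lower, and Trp53inp1 stood at 0.16 (p = 0.126, recomputed from the authors' values). None of 13 genes of cyclin and inhibitor turnover was called (median -0.02). Dtl, an adaptor of the ligase that degrades p21 and Cdt1 during S phase, had log2 ratio 0.51 (adjusted p = 0.161), Fbxw7, which marks cyclin E for degradation, -0.22 (adjusted p = 0.361) and Fbxo31 -0.14 (adjusted p = 0.406), by the authors' deposited table. Skp2, the adaptor that marks p27, stood at 0.04. None of 8 MYC and AP-1 genes was called (median -0.15), with Mycl at -0.47 (adjusted p = 0.163), Mycn at 0.29 (adjusted p = 0.272) and Jun at -0.25 (adjusted p = 0.292) in the authors' deposited table. None of the 3 subunits of the CDK-activating kinase was called, with Cdk7 at -0.10, Ccnh at 0.14 and Mnat1 at 0.02. All 3 were lower on trend-subtracted values, at -0.20, -0.01 and -0.19, so Ccnh and Mnat1 change sign (recomputed from the authors' values, p = 0.765 and 0.243). Over all lists outside the 10 genes, 87 genes were measured, of which 2 (Mki67 and Zmat3) were called, both higher in the mutant, beside 0.471% of all genes. Neither was called on trend-subtracted values.

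The ratios of all genes followed transcript composition, and this touches several of the 10 genes. Among protein-coding genes with a higher group mean of at least 1, the median log2 ratio went from 0.19 in the GC-poorest eighth to -0.13 in the GC-richest. Ccne2, at 37.5% GC, lay in the poorest eighth and Cdkn1c, at 59.8%, in the richest. A smooth trend on GC content and exonic length was therefore subtracted, from the log2 ratios and from the signed z of the authors' p-values, and p-values were recomputed. This took the log2 ratio of Ccne2 from 0.31 to -0.11, a change of sign at a recomputed p of 0.914, and that of Cdkn1b (43.9% GC) from 0.22 to 0.10. Cdkn1c went the other way, from 0.15 to 0.32 (recomputed from the authors' values, p = 0.0203, adjusted p = 0.292). Ccnd2 had 0.19 (recomputed from the authors' values, p = 0.0323, adjusted p = 0.333), Ccne1 0.32 and Cdkn1a -0.17. Cdkn1c and Ccnd2 were the 2 of the 10 at a recomputed unadjusted p under 0.05, beside 13.2% of all genes. None of the 10 was called on the subtracted values, where 0.153% of all genes were. Over the whole table calls went from 139 to 27, with 12 genes called both before and after.

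**Figure D3:**
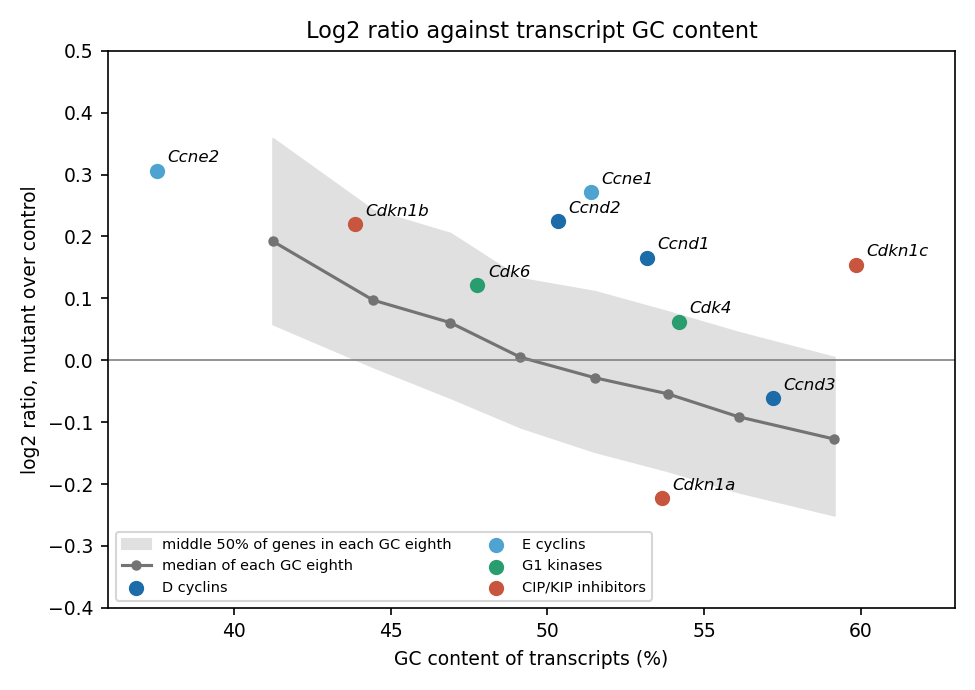
Log2 ratio of the 10 genes, mutant over control, against the GC content of their transcripts in percent. The grey line and band give the median and the middle 50% of protein-coding genes in each GC eighth, which fall from 0.19 to -0.13. Ccne2 and Cdkn1c lie at the GC-poor and GC-rich ends.

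**Figure D4:**
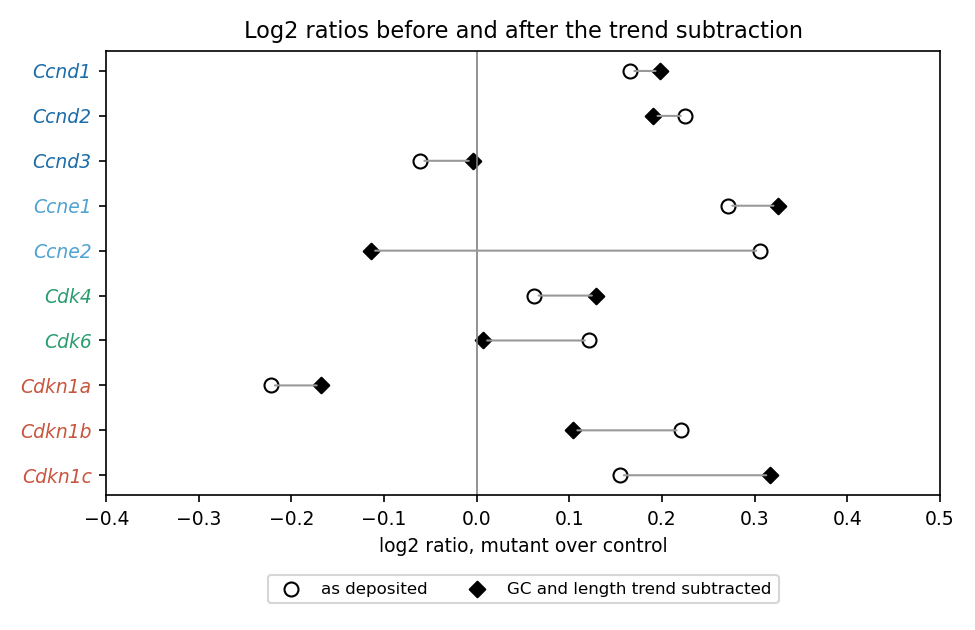
Log2 ratio of each of the 10 genes as deposited (open circles) and with the trend on GC content and length removed (diamonds). Ccne2 crosses 0 from 0.31 to -0.11, and Cdkn1c moves from 0.15 to 0.32.

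In position, several of the 10 genes share a chromosome. Ccnd1, Ccne1 and Cdkn1c are on chromosome 7, Ccnd2 and Cdkn1b on chromosome 6, and Ccnd3 and Cdkn1a on chromosome 17. Exons of Ccnd1, Ccnd3, Ccne2 and Cdk4 overlap those of a protein-coding gene on the other strand, namely LTO1, Bysl, Ints8 and Tspan31, and the overlap takes 23.4%, 4.11%, 17.4% and 19.7% of each gene's exonic bases. None of these neighbours was called in the authors' deposited table. Their log2 ratios were -0.01, -0.10, 0.09 and 0.07. The antisense gene Gm44732 overlaps 30.7% of the exonic bases of Cdkn1c, at group means of 0.336 and 0.313. Strand-aware counting is not stated, so reads in these overlaps may belong to either gene.

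Promoters in the RefSeq table (GRCm38.p6), which run from 250 bases before to 50 after the start, were matched for 6 of the 10 genes, all except Ccnd1, Ccnd2, Ccne2 and Cdkn1c. Both strands were searched for the E2F letters TTTCCCGC, TTTGGCGC and TTTCGCGC, the RUNX letters TGTGGT, the GLI letters TGGGTGGTC and the E-box CACGTG, which is its own reverse complement. At least 1 of the E2F letter sets occurs in 1.84% of the 32851 promoters, and the RUNX, GLI and E-box letters occur in 16.8%, 0.253% and 7.15%. The E-box, the letters that MYC and related factors recognise, was found in both kinases, with 4 copies in Cdk4 and 1 in Cdk6. The 250 bases upstream of each RefSeq start are shown because these were the E-box matches among the 6 genes, with E-boxes in capitals (chr10:127063285-127063534 and chr5:3343643-3343892, plus strand). The Cdk6 window lies inside the gene span given above, which begins at 3341485 in the gene models of GENCODE M21.
Cdk4: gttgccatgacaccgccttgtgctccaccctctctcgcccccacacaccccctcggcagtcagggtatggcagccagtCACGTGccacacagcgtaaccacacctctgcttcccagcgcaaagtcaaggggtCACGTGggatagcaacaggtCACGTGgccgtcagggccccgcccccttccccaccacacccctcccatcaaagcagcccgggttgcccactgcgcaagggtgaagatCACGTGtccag
Cdk6: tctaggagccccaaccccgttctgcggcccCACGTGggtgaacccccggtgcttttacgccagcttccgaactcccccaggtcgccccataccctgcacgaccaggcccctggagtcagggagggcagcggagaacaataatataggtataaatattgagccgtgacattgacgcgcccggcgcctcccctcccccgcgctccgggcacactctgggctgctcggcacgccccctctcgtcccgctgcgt
The promoter of Cdk4 also held the RUNX letters at 2 places, 154 and 66 bases upstream of the start, and no other of the 6 genes held them. The log2 ratio of Cdk4 was 0.06, outside the threshold. E2F and GLI letters were not found in these windows for the 6 genes.

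E2F letters were found for 6 of the 12 E2F target genes with a promoter in the table. For comparison with the kinases, 30 bases around the match are shown for the 4 genes whose first match lies upstream of the start, with the matched letters on either strand in capitals.
Mcm5: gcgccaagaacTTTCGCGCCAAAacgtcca
Mcm6: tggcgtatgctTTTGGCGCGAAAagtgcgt
Mcm7: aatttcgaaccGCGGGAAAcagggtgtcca
Cdc6: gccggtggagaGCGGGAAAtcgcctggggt
Their log2 ratios were 0.41 for Mcm5, 0.35 for Mcm6, 0.25 for Mcm7 and 0.36 for Cdc6, none of them called. The other 2 target genes with E2F letters were Mcm3, with log2 ratio 0.44, and Cdt1, the gene of the list with the lower mean, at -0.32. In Mcm5 and Mcm6 a pair of matches overlaps. The windows are chr8:75109345-75109374 and chr11:98908002-98908031 on the plus strand for Mcm5 and Cdc6, and chr1:128359797-128359826 and chr5:138172030-138172059 on the minus strand for Mcm6 and Mcm7. Of the 12057 genes tested that had a promoter in the table, 451 held E2F letters. These had a median log2 ratio of 0.02, and those without had 0.00. A match describes letters in a window and not a bound site.

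Summed levels of cell type markers stood as follows beside these values, mutant first. Odontoblast markers were all present (6 of 6), with summed means of 8941 and 9389, most of it Dspp (7360 and 7714). Ameloblast markers (7 of 7) summed to 178088 and 262615, most of it Amelx (112174 and 174946) and Ambn (53601 and 72752). Of these 7 markers 6 had the lower mean in the mutant and 1 the higher, Mmp20 at 532.5 against 531, and none was called. Erythroid markers (7 of 7) summed to 425.8 and 946.5 with 1 called lower, and osteoblast markers (6 of 6) to 47696 and 49538 with 2 called lower. Col1a1 made up most of the osteoblast sum (45190 and 45713), but all 6 markers were lower, with a median log2 ratio of -0.61. Spp1 had 38.0 against 91.3, Ibsp 80.4 against 179.5 and Bglap 1252 against 2234. The called markers, beside 0.318% of all genes called lower, were Hba-a1, Bglap and Sp7, and none was called on trend-subtracted values (recomputed from the authors' values, adjusted p = 0.3003, 0.312 and 0.144). No other marker listed was called. Endothelial markers (5 of 5) summed to 224.5 and 202, dental epithelium markers (6 of 6) to 2561 and 2554, and nerve and Schwann cell markers (5 of 5) to 88.3 and 112. Macrophage and leukocyte markers (5 of 7 in the table) summed to 257.3 and 234.1, and skeletal muscle markers (7 of 7) to 4.01 and 6.69. No listed marker was at 0 in either group. The part of these mixtures in the levels of the G1 genes was not tested.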

How the data were processed

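The submitters' processing notes name STAR 2.6.1d, Partek and mm10 and give no role for any of them. The annotation, the counting and the normalisation were not given in the sources used here. The deposited table compares a knockout (KO) with a wild-type (WT) group by GSA, per the file headers. Its group means, and the total per gene, are normalised signal values made by the authors, and the total equals 4 times the sum of both means for all 17631 genes (relative tolerance 1e-06). The deposited ratio is the mutant over the control mean. The deposited fold change, a signed score per the file headers, restates it. The deposited p-value is the authors', and their FDR equals its Benjamini-Hochberg adjustment. No column held a single library, so count tests could not be used.

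The log2 ratio is that of the deposited ratio. Gene models came from GENCODE M21 (GRCm38), matched by symbol for 99.6% of genes. The GC and length trend was fitted with mgcv 1.9.3 (R 4.3.3, basis size 8) on 13128 protein-coding genes whose higher mean reached 1, on the log2 ratio and on the signed z of the authors' p, took 25.9% of the variance of z, and was subtracted from every gene with a GC value. The subtraction was run on simulated data with a planted straight-line trend on GC content alone, which tests neither its length part nor a curved trend. The subtraction also removes any real change that follows GC content. The genes and lists were chosen with earlier results of these data known. Genes named are the 10, all measured INK4, pocket, E2F and later cyclin genes, the 3 of lowest p of each other list (1 E2F target among them is not reported here), and Runx2, Gli1 and Mki67; Cdc6, Mcm5, Mcm7, Cdt1, Skp2 and other listed genes were added after their values were seen. Of the INK4 list 1 gene was not analysed here. A planned comparison of protein sequences was not done, since protein sequences were not used here.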

Additional observations from a re-analysis of the deposited data

How the results depend on the processing

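No paired analysis was possible because the deposited table holds 1 mean per group and no values per library, although both groups use replicate numbers from 2 to 5. For the same reason leaving out single libraries was not run. None of the 10 G1 genes was called at an adjusted p threshold of 0.10, with genes under a higher mean of 1 left out, or with the GC and length trend subtracted. A threshold of 0.01 could call no gene at all, since the lowest adjusted p of all genes was 0.0213. Of the 10 log2 ratios, 2 changed direction: Ccnd3 to 0.0764 with group means scaled to equal sums, and Ccne2 to -0.11 with the trend subtracted. Scaling to equal sums adds 0.14 to every log2 ratio and took the median of cyclins and kinases to 0.30. Much of the gap in sums behind that shift came from Amelx and Ambn. A pseudocount of 1 and centring on the median of all genes changed no direction among the 10.

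With a threshold of 0.10, called genes numbered 354 higher and 287 lower over the table, 1 INK4 gene lower, 2 p53 group genes higher, 7 E2F targets higher and 3 proliferation markers higher. With 0.01, 0 were called in either direction. With the trend subtracted, 16 genes were higher and 11 lower, with 0 called in the p53 group and 0 among proliferation markers. The cause was not tested. Depth per library is unknown, which leaves the precision of the low means of Ccne1 and Ccne2 unknown too.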
